A study of Mus musculus with 27 samples.

Results

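The 9 genes described here are the D-type cyclins Ccnd1, Ccnd2 and Ccnd3, the Cip/Kip inhibitors Cdkn1a, Cdkn1b and Cdkn1c, and the INK4 inhibitors Cdkn2a, Cdkn2b and Cdkn2c. They were taken by symbol from a table of RNA-seq read counts for 33924 gene symbols in 27 libraries, and all 9 were found and passed the filter on low counts. Of these libraries, 24 come from 12 mouse thyroid tumor cell lines that all carry Braf(V600E). The lines have a further Arid1a, Arid2 or Smarcb1 knockout (KO) or none (Braf), with 3 lines per genotype. Those 3 genes code for components of SWI/SNF, a complex that remodels chromatin. Each line has a library under CKI (CH5126766, which inhibits RAF and MEK, given at 300 nM over 8 days) and a library under vehicle. The remaining 3 libraries are marked wildtype with no treatment, although their source field also reads tumor cell line. Lines were grown out of dissected tumors, the labels give no promoter or recombinase for any allele, and the wording of the treatment text leaves unclear which arm received bovine TSH.

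D-type cyclins bind the kinases CDK4 and CDK6, and the complexes phosphorylate RB, which releases E2F factors and lets a cell enter S phase. RAF, MEK and ERK signaling is a main input to Ccnd1 transcription. The INK4 proteins bind CDK4 and CDK6 directly, while the Cip/Kip proteins bind cyclin-CDK complexes of several kinds.

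Total counts lay between 18417255 and 27257703, except under CKI in Smarcb1 KO lines BS53958 (11684983) and BS53965 (2884130). Under vehicle the Smarcb1 KO lines held 0.461 ± 0.612 CPM of Smarcb1 and the Braf lines 74.9 ± 9.06 CPM, and the Arid1a KO lines held 80.5 ± 13.8 CPM of Arid1a and the Braf lines 132 ± 3.86 CPM (SD, n = 3 each). The Arid2 KO lines held 94.0 ± 14.3 CPM of Arid2 and the Braf lines 97.6 ± 10.2 CPM (SD, n = 3 each), which does not check that label. Thyroid follicular markers summed to 92.8 to 253 CPM in Braf vehicle and 229416 to 348168 CPM in wildtype libraries. Endothelial markers summed to 0.361 to 3.15 CPM in Braf vehicle and 383 to 587 CPM in wildtype libraries, and skeletal muscle markers to 0.980 to 2.42 CPM in Braf vehicle and 1151 to 2529 CPM in wildtype libraries. Among the tumor lines, AB52980 stood out with muscle markers (1330.1 CPM under CKI, 159 CPM under vehicle) and BS53965 with endothelial markers (57.3 CPM under CKI, 666 CPM under vehicle). The sum of 8 epithelial markers was 9.15 to 19.8 CPM under CKI and 316 to 336 CPM under vehicle in Arid1a KO, 84.9 to 211 and 84.6 to 922 CPM in Arid2 KO, 1.49 to 249 and 0.258 to 255 CPM in Smarcb1 KO, and 217 to 8661 and 1352 to 7379 CPM in Braf lines, and it was 1369 to 1640.3 CPM in wildtype libraries. The sum of 8 fibroblast markers was 1902 to 6742 CPM under CKI and 1306 to 3654 CPM under vehicle in Arid1a KO, 529 to 1142 and 20.2 to 32.4 CPM in Arid2 KO, 14.9 to 112 and 6.41 to 667 CPM in Smarcb1 KO, and 21.9 to 2064 and 5.46 to 174 CPM in Braf lines, and it was 2065 to 4067 CPM in wildtype libraries. The part of these markers in the results below was not tested, and in bulk libraries fewer cells of a type and less RNA per cell cannot be told apart. In Braf vehicle against wildtype, the Braf allele and the kinds of cells in the libraries differ together, so their parts cannot be told apart.

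Levels (CPM) are counts scaled to a common effective library total, which is the total count times a TMM factor set over all 27 libraries, changes are log2 values ± SE, and a gene was called at an adjusted p under 0.05, by edgeR unless DESeq2 is named, with all tested genes in the adjustment. Such p-values measure the spread between lines and between wildtype libraries. Overlap of groups or arms only describes the libraries of a gene, since the share of all genes without overlap was not counted. The labels do not say how the wildtype libraries relate to animals, and these differed from each other by more than counting noise (chi-square per degree of freedom 30.8 to 82.8). In Braf vehicle against wildtype, 6 of the 9 genes were called, beside 46.5% of all genes. Of these, 4 were higher and 2 lower, beside 23.7% and 22.8% of all genes. DESeq2 called 6 of 9 as well, beside 42.2% of all genes. In the mean CKI response over the 4 genotypes, 4 of 9 were called, beside 27.2% of all genes. Of these, 3 were higher and 1 lower under CKI, beside 13.6% and 13.6% of all genes. There DESeq2 called 4, beside 30.2% of all genes.

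Ccnd1, the D-type cyclin most directly tied to ERK signaling, had the largest fold over wildtype of the 9 genes and the largest mean fall under CKI. Its level was 2132, 2567 and 3277 CPM in Braf vehicle, against 34.0, 38.0 and 39.0 CPM in wildtype libraries. The groups did not overlap, with a log2 change of 6.17 ± 0.68 (71.8-fold, adjusted p = 1.73e-06). Under CKI it was lower in 12 of 12 lines, and the mean response of -1.93 ± 0.30 (adjusted p = 0.000329) was called in 21 of 21 alternative analyses. In vehicle the log2 change from Braf was -0.54 (95% interval -1.75 to 0.67) in Arid1a KO, -0.07 (95% interval -1.28 to 1.13) in Arid2 KO and -0.59 (95% interval -1.80 to 0.62) in Smarcb1 KO.

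The size of the Ccnd1 fall varied from line to line. In Arid1a KO lines BA45198, BA47473 and BA49112 it was at 281, 270.3 and 510.0 CPM under CKI, against 1521, 1679 and 2274 CPM under vehicle (-2.35 ± 0.60, adjusted p = 0.0174). In Arid2 KO lines AB51189, AB52980 and AB55694 it was at 71.1, 477 and 355 CPM under CKI, against 2223, 2437 and 2878 CPM under vehicle (-3.06 ± 0.62, adjusted p = 0.0534). The arms did not overlap in either genotype. The Arid1a KO call was lost when BA45198 (adjusted p = 0.0966), BA47473 (0.119) or BA49112 (0.0935) was left out. The Arid2 KO change was called with the cell line as a block (-3.41 ± 0.55, adjusted p = 0.00996) and by DESeq2 (adjusted p = 7.22e-05).

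In Smarcb1 KO lines BS53736, BS53958 and BS53965, Ccnd1 was at 462, 1879.5 and 1077 CPM under CKI, against 1247, 1978 and 2085 CPM under vehicle (-0.63 ± 0.58, adjusted p = 0.855). In Braf lines B47275, B48051 and B52482 it was at 604, 1494 and 384 CPM under CKI, against 2132, 2567 and 3277 CPM under vehicle (-1.68 ± 0.59, adjusted p = 0.298). The arms overlapped in Smarcb1 KO and were apart in Braf lines. The log2 change of single lines ran from -4.96 in AB51189 to -0.07 in BS53958.

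The median level of 20 proliferation genes, as log2(CPM + 0.5), was lower under CKI in 10 of 12 lines. Its change was lowest in BA45198 (-2.32), where Ccnd1 changed by -2.43, and highest in AB52980 (1.10), where Ccnd1 changed by -2.35. It changed by -2.22 in AB51189 and by 0.06 in BS53958, the lines with the largest and the smallest Ccnd1 change.

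Ccnd2 rose in the mean CKI response, and its changes were largest in Arid1a KO and Smarcb1 KO lines. Its level was 469, 237 and 826 CPM in Braf vehicle, against 259.7, 272 and 334 CPM in wildtype libraries, with overlap (0.82 ± 0.65, adjusted p = 0.313). The mean CKI response was 1.04 ± 0.34 (adjusted p = 0.0321), with a higher level in 10 of 12 lines. The call was lost in 9 of 21 alternatives, all of which left lines out, with an adjusted p of up to 0.0913.

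In Arid1a KO lines Ccnd2 was at 2212, 1649 and 2210.4 CPM under CKI, against 514, 432 and 618 CPM under vehicle (1.97 ± 0.71, adjusted p = 0.0686, and 0.00157 with the block and 0.0240 by DESeq2). In Smarcb1 KO lines it was at 2980.0, 2058 and 2114 CPM under CKI, against 603, 542 and 1249.7 CPM under vehicle (1.58 ± 0.70, adjusted p = 0.526, and 0.0394 with the block). DESeq2 did not call the Smarcb1 KO change. The arms did not overlap in Arid1a KO or in Smarcb1 KO. In Arid2 KO lines it was at 368, 938 and 2447 CPM under CKI, against 458, 881 and 1895 CPM under vehicle (0.22 ± 0.68, adjusted p = 0.925). In Braf lines it was at 637, 152 and 1207 CPM under CKI, against 469, 237 and 826 CPM under vehicle (0.40 ± 0.68, adjusted p = 0.888). There the arms overlapped, and AB51189 and B48051 had less Ccnd2 under CKI. Under CKI every Smarcb1 KO library lay above every Braf library (1.82 ± 0.70, adjusted p = 0.0676, and 0.0310 by DESeq2). So did every Arid1a KO library (1.61 ± 0.70, adjusted p = 0.284). The knockout response minus the Braf response was 1.57 ± 0.97 in Arid1a KO and 1.19 ± 0.97 in Smarcb1 KO, and neither was called. With the block these differences were 1.84 ± 0.43 (adjusted p = 0.119) and 1.54 ± 0.43 (adjusted p = 0.343).

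Ccnd3 was lower in Braf lines than in wildtype and rose in the mean CKI response. Its level was 75.8, 44.0 and 47.9 CPM in Braf vehicle, against 94.5, 94.9 and 119 CPM in wildtype libraries, with no overlap (-0.88 ± 0.28, adjusted p = 0.0142). That call was lost without Braf line B48051 (adjusted p = 0.0566). The mean CKI response was 0.95 ± 0.15 (adjusted p = 0.000347), called in 21 of 21 alternatives, and the level was higher in 11 of 12 lines.

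In Arid1a KO lines Ccnd3 was at 161, 117 and 169 CPM under CKI, against 71.2, 35.8 and 48.6 CPM under vehicle (1.54 ± 0.30, adjusted p = 0.00442, and 0.0703 without BA49112). In Arid2 KO lines it was at 93.4, 78.4 and 93.6 CPM under CKI, against 41.8, 51.4 and 43.9 CPM under vehicle (0.96 ± 0.29, adjusted p = 0.162, and 0.0482 by DESeq2). In Smarcb1 KO lines it was at 78.1, 47.2 and 82.0 CPM under CKI, against 23.9, 38.2 and 32.9 CPM under vehicle (1.12 ± 0.30, adjusted p = 0.168, and 0.0172 by DESeq2). With the block the Ccnd3 change was not called in Arid2 KO (adjusted p = 0.0642) or Smarcb1 KO (0.0939). The arms did not overlap in any of the knockouts. In Braf lines they did, at 59.5, 45.4 and 82.6 CPM under CKI, against 75.8, 44.0 and 47.9 CPM under vehicle (0.17 ± 0.29, adjusted p = 0.888). The Arid1a KO response minus the Braf response was 1.37 ± 0.41, adjusted p = 0.698, and 0.181 with the block.

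Between genotypes, Ccnd3 lay near the threshold in Smarcb1 KO in vehicle and in Arid1a KO under CKI. In the other comparisons of a knockout with Braf its adjusted p was 0.576 to 0.899. In vehicle every Smarcb1 KO library was below every Braf library (-0.83 ± 0.29, adjusted p = 0.0582, and 0.0274 by DESeq2). Under CKI every Arid1a KO library was above every Braf library (1.26 ± 0.30, adjusted p = 0.0544, and 0.00260 by DESeq2).

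**Figure D1:**
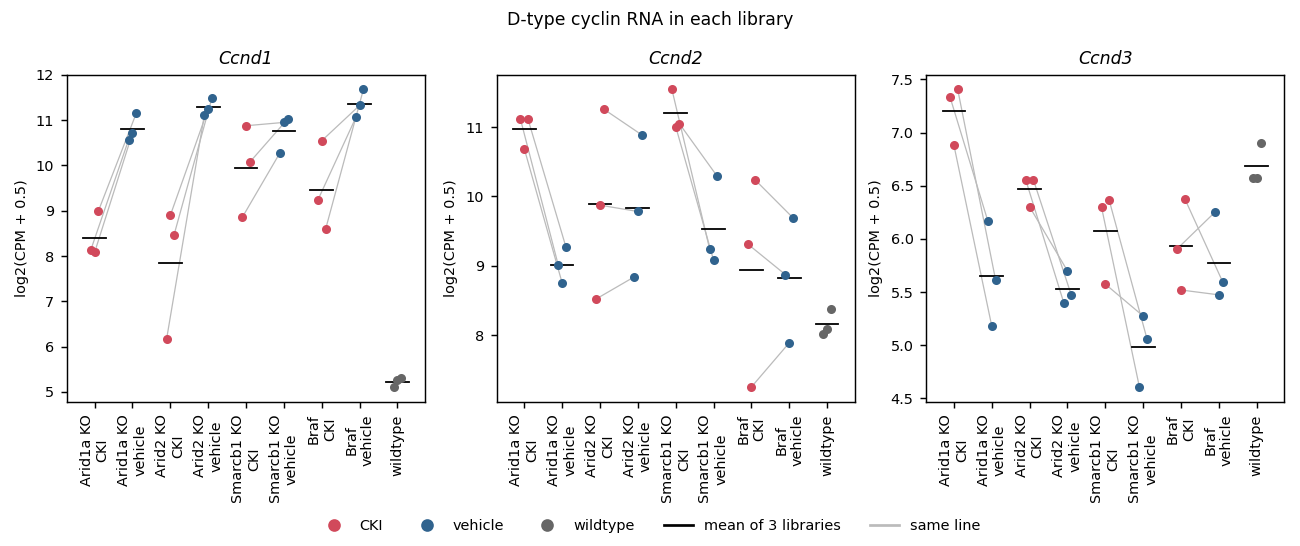
Level of the D-type cyclins in each library, as log2(CPM + 0.5), by group; points are libraries, black bars the means of 3 libraries, and grey lines join the libraries of a line. Ccnd1 is lower under CKI in 12 of 12 lines and Ccnd3 higher in 11 of 12.

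Per exon length, Ccnd1 made up most D-type cyclin RNA in the tumor lines under vehicle. This ratio was chosen after the levels were seen and is given without a test. Ccnd1 held 71.9% to 92.8% of the summed CPM per kilobase in the 12 tumor vehicle libraries and 9.57% to 11.4% in wildtype libraries. In the wildtype libraries Ccnd2 held 44.8% to 45.7% and Ccnd3 43.3% to 44.8%. Under CKI the Ccnd1 share was 15.98% to 25.5% in Arid1a KO, 17.0% to 42.6% in Arid2 KO, 20.6% to 60.7% in Smarcb1 KO and 32.5% to 90.6% in Braf lines. The highest of these was line B48051, which had 90.6% under CKI and 92.8% under vehicle.

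**Figure D2:**
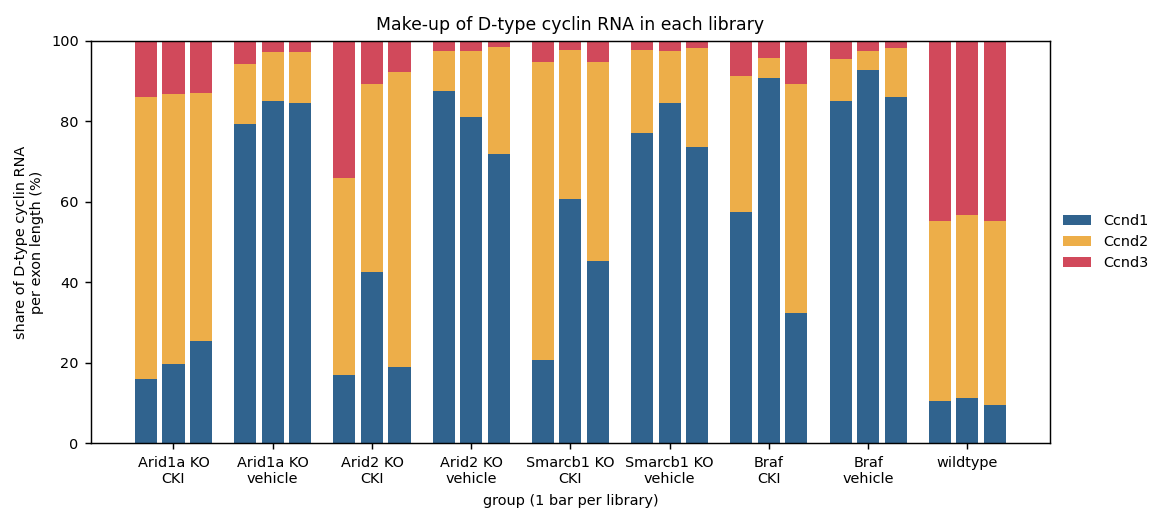
Share of each D-type cyclin in the summed CPM per kilobase of exon of the 3 genes, in percent, with 1 bar per library. Ccnd1 holds most in tumor vehicle libraries (71.9% to 92.8%), and Ccnd2 holds 61.6% to 70.1% in Arid1a KO lines under CKI.

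Cdkn1a encodes p21, a Cip/Kip inhibitor and a classic target of p53. The bases before the upstream of its RefSeq starts are shown (GRCm38.p6, chr17:29090729-29090978, plus strand), because the genes most like Cdkn1a across libraries are p53 targets and a match to the p53 response element, in capitals, lies here.
Cdkn1a, upstream start: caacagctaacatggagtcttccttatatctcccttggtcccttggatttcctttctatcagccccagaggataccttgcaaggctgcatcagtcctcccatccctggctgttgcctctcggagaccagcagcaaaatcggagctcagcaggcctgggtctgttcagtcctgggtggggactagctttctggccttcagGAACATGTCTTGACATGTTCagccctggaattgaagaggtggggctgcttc

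The match has at most 1 mismatch, with the core C and G of both decamers kept and no spacer, a tolerance chosen after the sequence was seen. Of 32851 RefSeq stretches of the same length, searched on both strands, 0.0578% held such a match and 0.00913% held one with 0 mismatches. A match describes letters only.

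Cdkn1a was higher in Braf lines than in wildtype. Its level was 658, 483 and 448 CPM in Braf vehicle, against 20.1, 40.9 and 26.97 CPM in wildtype libraries, with no overlap (18.0-fold, 4.17 ± 0.50, adjusted p = 3.83e-06). In vehicle the log2 change from Braf was 0.05 (95% interval -0.88 to 0.99) in Arid1a KO, 0.04 (95% interval -0.90 to 0.97) in Arid2 KO and -0.07 (95% interval -1.01 to 0.87) in Smarcb1 KO. The mean CKI response was 0.15 (95% interval -0.32 to 0.62), with 7 lines higher and 5 lower. None of these was called. The lowest tumor library was AB51189 under CKI, at 144 CPM, against 396 CPM under vehicle.

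Of 20 measured genes of p53 and its targets, 15 were higher and 0 lower in Braf vehicle than in wildtype. Of all genes, 23.7% were higher and 22.8% lower there. The list median was 2.12, against 0.02 over all genes tested. Examples of its higher genes were Eda2r, a TNF receptor family member (5.36 ± 0.41), and Bax, a pro-apoptotic protein (2.35 ± 0.29). In the mean CKI response 2 of the 20 were higher and 1 lower, beside 13.6% and 13.6% of all genes. There the list median was 0.10, against 0.03 over all genes tested. The genes most like Cdkn1a over the 24 tumor libraries were Aen (r = 0.848) and Zmat3 (r = 0.816). Without AB51189 the values over 22 libraries were 0.727 and 0.613. In that line Aen was at 49.5 CPM under CKI, against 145 CPM under vehicle.

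Cdkn1b encodes p27, a Cip/Kip inhibitor typically high in cells that have left the cycle. Its level was 98.7, 62.8 and 54.2 CPM in Braf vehicle, against 115, 104 and 111 CPM in wildtype libraries, with no overlap but no call (-0.61 ± 0.46, adjusted p = 0.290). The mean CKI response just passed the threshold (0.67 ± 0.24, adjusted p = 0.0496), with a higher level in 9 of 12 lines. It was lost in 13 of 21 alternatives, with an adjusted p of up to 0.172, and was 0.57 ± 0.18 with the block (adjusted p = 0.0267). In Arid1a KO lines it was at 279, 119 and 77.4 CPM under CKI, against 71.5, 69.8 and 38.1 CPM under vehicle (1.42 ± 0.50, adjusted p = 0.0627, and 0.0242 with the block and 0.0273 by DESeq2). These arms did not overlap. Braf lines went both ways, at 80.3, 38.4 and 129 CPM under CKI, against 98.7, 62.8 and 54.2 CPM under vehicle (0.21 ± 0.49, adjusted p = 0.921).

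Cdkn1c encodes p57, a Cip/Kip inhibitor from an imprinted cluster. Its level was 0.230, 2.16 and 1.24 CPM in Braf vehicle, against 11.8, 14.4 and 14.0 CPM in wildtype libraries, with no overlap (-3.46 ± 1.27, adjusted p = 0.0313). The call was lost without Braf lines B47275 (adjusted p = 0.104) or B52482 (0.0716), and without either of 2 wildtype libraries (0.0553 and 0.0527). Without Braf line B48051 the change was -4.19 (adjusted p = 0.0418). Tumor levels reached 9.81 CPM in BA49112 under vehicle, while AB55694 had 0 counts under vehicle, which allows up to 0.137 CPM (3 counts). Of the 8 measured genes of its imprinted cluster, 3 were higher and 2 lower in Braf vehicle than in wildtype. Of all genes, 23.7% were higher and 22.8% lower there. The cluster median was 0.85, against 0.02 over all genes tested. The lower ones in the cluster were H19, a noncoding RNA (-6.85 ± 1.60), and Igf2, a growth factor (-4.66 ± 1.11). Cd81, a tetraspanin (1.13 ± 0.23), and Kcnq1, a potassium channel subunit (3.63 ± 1.30), were among the higher ones.

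Cdkn2a encodes p16INK4a and ARF from separate first exons, and counts by symbol pool both. Its neighbour Cdkn2b encodes p15. The bases before their RefSeq starts (GRCm38.p6, minus strand) are shown because a single line had almost no RNA of either gene.
Cdkn2a, upstream start (chr4:89294620-89294869): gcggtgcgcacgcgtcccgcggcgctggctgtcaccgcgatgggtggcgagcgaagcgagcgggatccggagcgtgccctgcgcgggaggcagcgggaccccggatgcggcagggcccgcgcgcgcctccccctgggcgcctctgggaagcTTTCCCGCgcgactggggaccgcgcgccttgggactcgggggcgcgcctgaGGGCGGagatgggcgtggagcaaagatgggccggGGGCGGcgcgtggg
Cdkn2a, downstream start (chr4:89282193-89282442): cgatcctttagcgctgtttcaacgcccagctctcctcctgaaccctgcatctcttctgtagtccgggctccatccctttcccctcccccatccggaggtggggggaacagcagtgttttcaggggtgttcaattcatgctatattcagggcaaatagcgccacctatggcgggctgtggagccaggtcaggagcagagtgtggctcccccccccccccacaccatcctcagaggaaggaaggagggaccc
Cdkn2b (chr4:89311033-89311282): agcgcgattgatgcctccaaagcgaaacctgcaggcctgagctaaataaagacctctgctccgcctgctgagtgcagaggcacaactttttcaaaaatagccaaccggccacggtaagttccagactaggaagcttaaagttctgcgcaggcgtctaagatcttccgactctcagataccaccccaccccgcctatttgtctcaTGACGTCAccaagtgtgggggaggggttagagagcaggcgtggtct

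Capitals mark GGGCGG and TTTCCCGC before the upstream Cdkn2a start and TGACGTCA before Cdkn2b, which occur in 32.7%, 0.895% and 1.55% of the 32851 stretches. The downstream stretch held none of the 9 motifs searched on both strands, which says only that these letters are not in this window. The others were the p53 response element, TGANTCA (6.75% of stretches), GTAAACA (3.17%), CACGTG (6.02%), TTTGGCGC (0.417%) and CCGGAAG (6.91%).

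Both genes were higher in Braf lines than in wildtype. Cdkn2a was at 29.3, 72.5 and 32.1 CPM in Braf vehicle, against 1.29, 1.40 and 0.699 CPM in wildtype libraries (5.29 ± 1.37, adjusted p = 0.00401). Cdkn2b was at 38.8, 63.5 and 93.9 CPM in Braf vehicle, against 6.16, 4.97 and 4.14 CPM in wildtype libraries (3.68 ± 1.20, adjusted p = 0.0172). Neither pair of groups overlapped. The Cdkn2b call was lost when any 1 of the wildtype libraries was left out (adjusted p = 0.0506, 0.0591 and 0.0636).

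Line AB51189 (Arid2 KO) stood apart from the other tumor lines at this locus. It held 4 counts of Cdkn2a under CKI (0.173 CPM, exact Poisson 95% interval 0.0471 to 0.443) and 11 under vehicle (0.484 CPM, 0.242 to 0.867), against 22.8 to 121 CPM in the other 22 tumor libraries. It held 3 counts of Cdkn2b in each arm, 284 times (counting interval 97.2 to 1378) below the median of those libraries under CKI and 279 times (95.5 to 1353) under vehicle. Neither gene overlapped the other libraries.

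Among genes of chromosome 4 with a median of at least 5 CPM, the low RNA in AB51189 took in the nearest neighbours on 1 side. In this order Ptplad2, Klhl9, Mtap, Cdkn2a and Cdkn2b follow each other. Each was over 10 times below the median of the other libraries in both arms. Genes below that level, which may lie inside or beside the run, were left out, so its ends are set only among the genes kept. Klhl9, a ubiquitin ligase adaptor, was at 0.303 CPM under CKI and 0.528 CPM under vehicle, against 84.5 to 250.5 CPM in the other tumor libraries. Mtap, an enzyme of methionine salvage, was at 0.216 CPM under CKI and 0.837 CPM under vehicle, against 73.5 to 878 CPM. Mllt3 and 5830433M19Rik, on either side of the run, lay within the range of the other libraries, and Ptplad2 was as low as 0.0950 CPM in another library. Of the 25 genes in order around Cdkn2a, Fggy was the only other low one, and 2 more lay elsewhere among the 626 genes considered on the chromosome. Whether the DNA of this stretch is present was not tested.

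**Figure D3:**
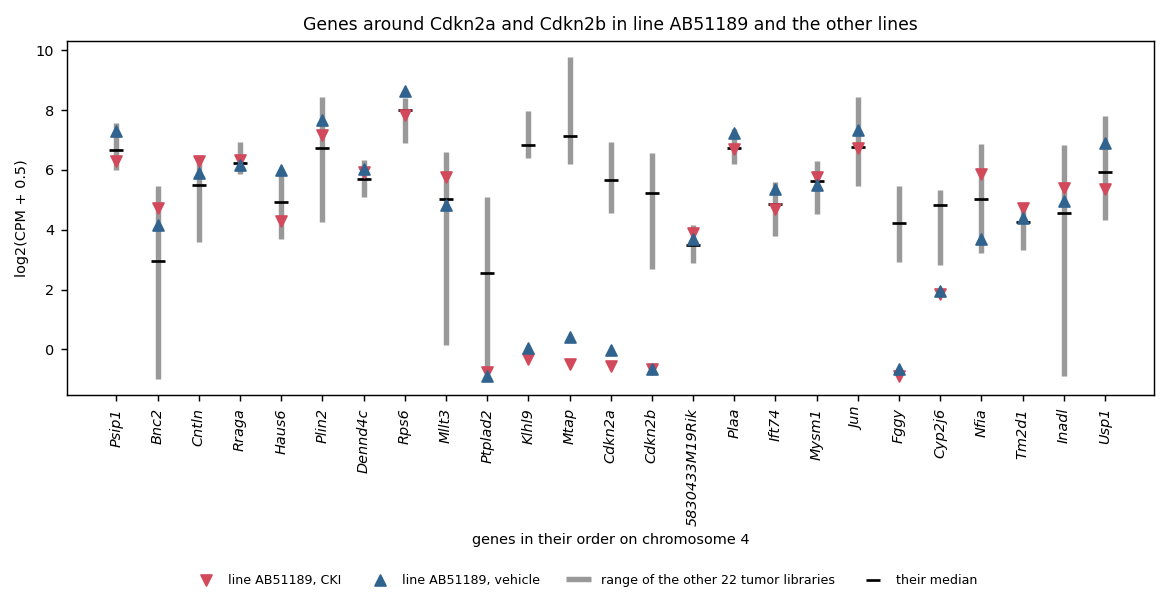
RNA of the 25 genes around Cdkn2a with a median of at least 5 CPM, in their order on chromosome 4, as log2(CPM + 0.5). Values are for line AB51189 under CKI and vehicle and for the other 22 tumor libraries (range and median). AB51189 lies below the range of the others at Ptplad2, Klhl9, Mtap, Cdkn2a, Cdkn2b, Fggy and Cyp2j6.

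AB51189 also widened the spread of the tests of Cdkn2a and Cdkn2b. In vehicle, Cdkn2b was at 5.93, 16.7 and 17.7 CPM in Smarcb1 KO, against 38.8, 63.5 and 93.9 CPM in Braf lines, with no overlap (-2.28 ± 1.19, adjusted p = 0.188). Arid1a KO libraries, at 22.9 to 37.4 CPM, also lay below every Braf library in vehicle (-1.075 ± 1.15, adjusted p = 0.672). So did Arid2 KO libraries, at 0.132 to 29.9 CPM with AB51189 lowest (-1.73 ± 1.17, adjusted p = 0.612). None of these was called, and they share their Braf libraries. In a fit without AB51189, added after the data were seen, the Smarcb1 KO change was -2.28 (adjusted p = 0.00395). That fit gave adjusted p-values of 1.13e-05 for Cdkn2a and 8.27e-06 for Cdkn2b in Braf vehicle against wildtype. The correlation of Cdkn2a with Cdkn2b was 0.866 over 24 tumor libraries and 0.039 over the 22 without AB51189.

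TGF-beta signaling is a known inducer of Cdkn2b. Of 9 TGF-beta ligand, receptor and SMAD genes, 3 were lower and 0 higher in Smarcb1 KO than in Braf under vehicle, beside 18.1% of all genes called in this comparison (median -0.29, against -0.02 over all genes tested). They were Tgfbr2 (-2.89 ± 0.56) and Tgfbr1 (-0.96 ± 0.23), the receptor subunits, and Tgfb3, a ligand (-2.19 ± 0.57). Of 12 regulators of the Cdkn2a locus, 2 were lower and 0 higher there, a share near that of all genes (median -0.32, against -0.02 over all genes tested), namely Ets2 (-2.71 ± 0.66) and Tbx2, a repressor of the locus (-4.88 ± 1.21). In Arid1a KO and in Arid2 KO against Braf under vehicle, 0 genes of either list were called, beside 3.63% and 0.0512% of all genes. The part of the listed genes in the level of Cdkn2b was not tested.

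Under CKI, Cdkn2b was at 60.0, 79.4 and 81.3 CPM in Arid1a KO lines, against 37.4, 32.7 and 22.9 CPM under vehicle, with no overlap (1.26 ± 1.15, adjusted p = 0.482). With the block the change was 1.28 ± 0.28 (adjusted p = 0.00684). Cdkn2a was at 91.7, 34.7 and 50.3 CPM under CKI in the same lines, against 63.4, 22.8 and 28.8 CPM under vehicle (0.63 ± 1.18, adjusted p = 0.758). These arms overlapped, and with the block the change was 0.66 ± 0.16 (adjusted p = 0.0118). DESeq2 called neither gene in these lines.

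Cdkn2c encodes p18, an INK4 inhibitor from another locus. Its level was 28.0, 11.95 and 26.8 CPM in Braf vehicle, against 25.8, 42.4 and 20.7 CPM in wildtype libraries, with overlap (-0.41 ± 0.47, adjusted p = 0.492). In vehicle every knockout library was above every Braf library, at 33.2 to 53.9 CPM in Arid1a KO (0.98 ± 0.48, adjusted p = 0.270), 32.1 to 39.3 CPM in Arid2 KO (0.72 ± 0.48, adjusted p = 0.599) and 47.8 to 57.3 CPM in Smarcb1 KO (1.19 ± 0.48, adjusted p = 0.0903). None was called, and the 3 comparisons share their Braf libraries. The mean CKI response was -0.38 ± 0.24, adjusted p = 0.248, with a lower level in 9 of 12 lines. With the block, 6 of the 9 genes were called in the mean CKI response, beside 42.9% of all genes, the added ones being Cdkn2c (-0.47 ± 0.16, adjusted p = 0.0346) and Cdkn2b (0.53 ± 0.14, adjusted p = 0.0130).

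**Figure D4:**
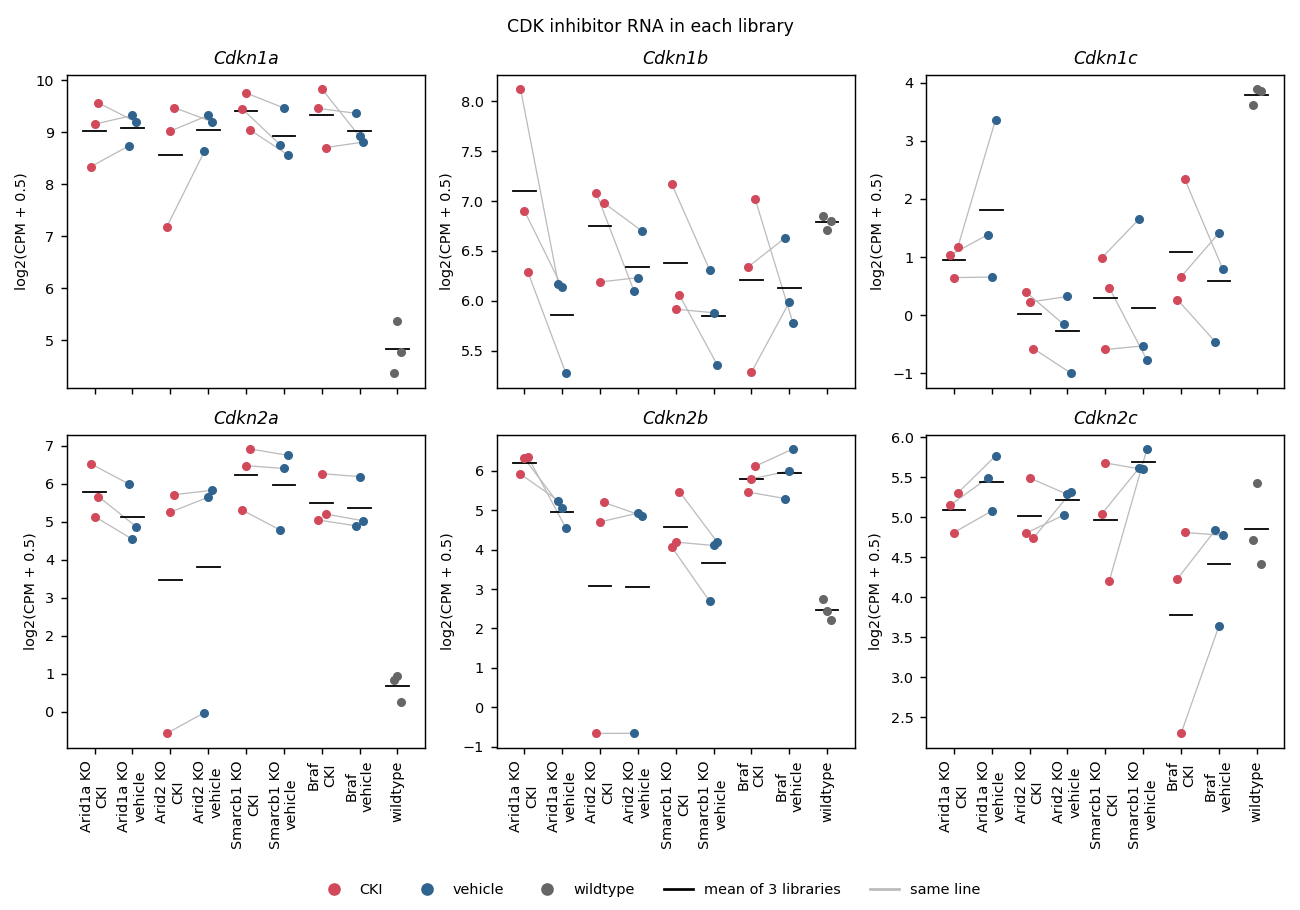
Level of the CDK inhibitors in each library, as log2(CPM + 0.5), by group, with points, bars and lines as in the plot of the cyclins. Cdkn2a and Cdkn2b are near 0 CPM in line AB51189 of Arid2 KO, and Cdkn1a in Braf vehicle lies above the wildtype libraries.

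**Figure D5:**
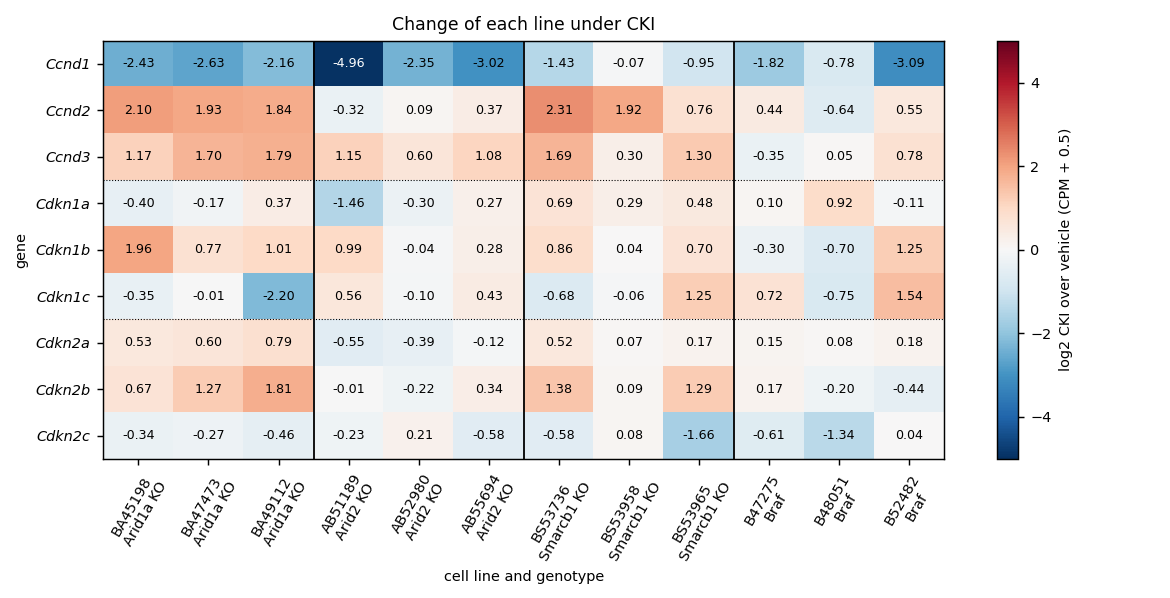
Change of each line under CKI, as log2 of CKI over vehicle CPM with 0.5 added, for the 9 genes and 12 lines. Ccnd1 is negative in all 12 lines (-4.96 to -0.07), and Ccnd2 is positive in all Arid1a KO lines (1.84 to 2.10).

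Comparisons of a knockout with Braf called none of the 9 genes by edgeR. In vehicle the count was 0 for Arid1a KO (beside 3.63% of all genes), Arid2 KO (0.0512%) and Smarcb1 KO (18.1%). Under CKI it was 0 for Arid1a KO (0.736%), Arid2 KO (0.064%) and Smarcb1 KO (23.1%). At an unadjusted p under 0.05, edgeR gave 0 genes in Arid1a KO, 0 in Arid2 KO and 2 in Smarcb1 KO in vehicle. Under CKI it gave 3, 1 and 1 in the same order. Of the 15634 genes tested, 3051, 1940 and 5231 passed that cut in vehicle, and 2289, 1643 and 5851 under CKI. In vehicle DESeq2 called 0 in Arid1a KO (beside 9.31% of all genes), 0 in Arid2 KO (3.46%) and 1 in Smarcb1 KO (22.7%). Under CKI it called 1 in Arid1a KO (beside 6.01% of all genes), 0 in Arid2 KO (2.71%) and 1 in Smarcb1 KO (27.8%).

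The CKI response within a genotype called 2 of the 9 genes in Arid1a KO, beside 13.9% of all genes. It called 0 in Arid2 KO (beside 0.141% of all genes), 0 in Smarcb1 KO (0.032%) and 0 in Braf (0%). At an unadjusted p under 0.05 edgeR gave 2, 2 and 1 in those last 3 genotypes. That cut took in 2130, 1334 and 1744 of the 15634 genes tested. DESeq2 called 4 in Arid1a KO (beside 20.8% of all genes), 2 in Arid2 KO (3.79%), 1 in Smarcb1 KO (1.76%) and 0 in Braf (2.19%). With the cell line as a block, the counts were 6 in Arid1a KO (beside 32.3% of all genes), 1 in Arid2 KO (6.27%), 1 in Smarcb1 KO (1.06%) and 0 in Braf (2.48%). The differences of each knockout's response from that of Braf called 0 of the 9 genes by edgeR, beside 0% of all genes. The unadjusted edgeR counts were 1 for Arid1a KO, 0 for Arid2 KO and 1 for Smarcb1 KO. Among all 15634 genes those counts were 801, 124 and 659. DESeq2 also called 0 of 9, beside 0.173%, 0.0271% and 0.262% of all genes. With the block they called 0 of 9, beside 0.147%, 0% and 0.032% of all genes.

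Other genes of the cell cycle moved in the same comparisons. Of all genes, 23.7% were called higher and 22.8% lower in Braf vehicle against wildtype. In the mean CKI response 13.6% were called higher and 13.6% lower. Of 20 proliferation genes, 20 were higher in Braf vehicle than in wildtype (median 4.83, against 0.02 over all genes tested), and 15 fell in the mean CKI response (median -0.86, against 0.03 over all genes tested), with the helicase subunit genes Mcm2 at -1.02 ± 0.19 and Mcm3 at -1.13 ± 0.23. Of 22 genes of the CDK and RB pathway, 11 fell and 3 rose under CKI (median -0.55, against 0.03 over all genes tested). Ccne2, an E-type cyclin, was among those that fell (-1.15 ± 0.26), and Rbl2, a relative of RB, rose (0.68 ± 0.15). Of 17 ERK output genes, 10 fell and 2 rose (median -1.04, against 0.03 over all genes tested), with the feedback gene Spry4 at -2.45 ± 0.32. Under CKI, 11 of 20 proliferation genes and 8 of 22 pathway genes were higher in Smarcb1 KO than in Braf, and 0 of either list were lower. There 23.1% of all genes were called, and the list medians were 1.44 and 0.91, against -0.05 over all genes tested. The pathway genes included Cdk4, the partner of the D-type cyclins (0.88 ± 0.23), and Rb1 (1.67 ± 0.34). Under vehicle 1 proliferation gene was higher and 0 lower (median 0.83). Of the pathway genes 2 were higher and 1 lower (median 0.64), beside 18.1% of all genes called.

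The genes most like each member over the 24 tumor libraries, which share lines and treatments, are given without a test. For Ccnd1 they were Hmga2 (r = 0.891) and Mbtps2 (0.876), for Ccnd2 Aldh4a1 (0.795) and Pcdhb22 (0.787), and for Ccnd3 Stat3 (0.887) and Scp2 (0.880). Fbxo7 was named for Cdkn1b (r = 0.831). The genes were, for Cdkn1c, Pard6g (0.714) and Camsap2 (0.683), and, for Cdkn2c, Ppm1m (0.912) and Nrd1 (0.896). For Cdkn2a they were Klhl9 (0.938) and Ano3 (0.934), which were 0.071 and 0.406 without AB51189. For Cdkn2b they were 1810063B07Rik (0.935) and Ano3 (0.929), which were 0.673 and 0.545 without it. Between members, Ccnd1 had r = -0.700 with Ccnd3 and -0.683 with Cdkn1b.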

How the data were processed

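RNA was sequenced from 27 libraries (TRIzol, TruSeq, per the labels). The authors deposited raw counts per gene symbol, 1 column per library. STAR 2.4, HTSeq 0.6.1, DESeq2 and mm9 are named in the submitters' processing notes with no role. The sources used here give no annotation or strand setting, so reads of overlapping or antisense genes cannot be told apart. With edgeR 4.0.16 in R 4.3.3, genes were filtered with filterByExpr, libraries scaled by TMM, and 1 mean per group fitted by quasi-likelihood. The 24 tumor libraries shared a fit (15634 genes), and a fit of all 27 libraries (16821 genes) served Braf vehicle against wildtype. In 15 comparisons p-values were Benjamini-Hochberg adjusted over all genes tested. Standard errors were derived from the F statistic as an approximation. The steps were also run on simulated counts with the same spread for every gene and no pairing of lines. Such counts do not test how the steps handle the differences between these lines.

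CKI and vehicle libraries that carry the name of the same line are paired. The correlation of their deviations from group means was 0.259 to 0.773 over the 12 lines, and the blocked fit has 8 residual degrees of freedom. Alternatives were RLE scaling, total counts, DESeq2 1.42.0, other filters, other libraries in the fit, thinned counts, lines left out, and the block. Genes named are the 9 members, genes of each list among the 4 called ones ranked first by adjusted p, and the 2 most correlated genes per member with a mean log2 CPM of at least 2, of which 1 is not reported here. The neighbours of Cdkn2a were chosen after their values were seen. Members and lists were chosen with earlier results of these data known. Promoter stretches are the 250 bases before RefSeq starts (GRCm38.p6). They matched 6 of 9 members, and Ccnd1, Ccnd2 and Cdkn1c are named only. Exon lengths are from GENCODE M21. Intervals and floors from counts cover counting error only.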

Additional observations from a re-analysis of the deposited data

Results flagged for a closer look

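The sign of the Cdkn2a difference between CKI and vehicle was not the same in all genotypes. All 3 Arid2 KO lines had less under CKI, with a median log2 change of -0.3947, whereas all 3 lines had more in Arid1a KO (median 0.5953), in Smarcb1 KO (0.1692) and in Braf (0.1531). AB51189, with 4 counts under CKI and 11 under vehicle, is 1 of the Arid2 KO lines. The Arid2 KO response minus the Braf response was -0.36 ± 1.67 (edgeR adjusted p = 1), and -0.56 ± 0.24 with the cell line as a block (adjusted p = 1). The differences of Arid2 KO from Arid1a KO and from Smarcb1 KO were not tested.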

How the results depend on the processing

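Over all comparisons, 12 changes of the 9 genes were called, and 0 of these reversed direction in the alternatives run. Of the 123 changes that were not called, 43 reversed in at least 1 alternative. In Braf vehicle against wildtype, 6 of the 9 genes were called, and 4 to 6 with single lines or libraries left out. In Smarcb1 KO against Braf in vehicle it was 0, and 1 with RLE size factors, all 27 libraries, DESeq2, or without AB51189 (added after the data were seen), and 0 to 1 with single lines left out. In the Arid1a KO response it was 2, and 4 with the compared groups only, 4 with DESeq2, 6 with the replicate block, and 0 to 3 with single lines left out. In the Arid2 KO response it was 0, and 1 with all 27 libraries, at least 1 CPM, thinned counts or the replicate block, and 2 with DESeq2. In the Smarcb1 KO response it was 0, and 1 with DESeq2 or the replicate block. In the mean CKI response it was 4, and 2 without BS53958 and BS53965, and 2 to 4 with single lines left out, falling to 2 without BA45198, BA47473, BA49112, AB52980, B47275, B52482, BS53736 or BS53958. Under CKI it was 0 in Arid1a KO against Braf, and 1 with all 27 libraries or DESeq2, and 0 to 1 with single lines left out. Under CKI it was 0 in Smarcb1 KO against Braf, and 1 with total counts only, all 27 libraries or DESeq2, and 0 to 1 with single lines left out. The causes were not tested. The replicate block changed no other call of a member than those given beside the results. The median change of all genes in Braf against wildtype was 0.02, -0.14 with RLE size factors and 0.19 with total counts only. The low totals of BS53958 and BS53965 under CKI limit their precision.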
